A study of Mus musculus with 4 samples.

Results

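Most olfactory sensory neurons (OSNs) of the mouse main olfactory epithelium use one signalling pathway, and 6 genes that belong to other pathways were followed here through the neurons: Gucy2d, Gucy1b2, Pde2a, Car2, Cnga3 and Trpc2. They were chosen by name out of 55511 features in the count matrices, and were read in the 12391 neurons that the deposited annotation calls mature (mOSN, 10519 neurons), late immature (iOSN2, 1006 neurons) or early immature (iOSN1, 866 neurons). These neurons were part of 15859 retained cells and of 21809 cell barcodes. The cells came from 4 male C57BL/6 mice aged 8 weeks, kept without treatment or genetic change as far as the labels say, and each mouse gave 1 library of 3′ single-cell RNA-seq. Live nucleated cells had been sorted with 2 dyes before loading, so no antibody or reporter selected the neurons. Mice 1 to 4 held 3398, 3013, 2248 and 3732 of the neurons, the median neuron carried 5132 unique molecular identifiers (UMIs, counted transcripts), and library totals ran from 23157467 to 32382702 UMIs. Among the cells, 26 barcode sequences were found in more than 1 library after filtering.

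In a canonical OSN an odorant receptor activates the G protein subunit Gnal, adenylate cyclase Adcy3 makes cAMP, and cAMP opens a channel built of Cnga2, Cnga4 and Cngb1. Rare neurons of the same epithelium signal differently. Neurons with Gucy2d, a receptor guanylate cyclase, are known to make cGMP, to carry the cGMP-stimulated phosphodiesterase Pde2a, carbonic anhydrase II (Car2) and the cGMP-gated channel subunit Cnga3, to respond to guanylin peptides and carbon disulfide, and to project to necklace glomeruli of the olfactory bulb. Gucy1b2 encodes a subunit of the soluble guanylate cyclase and marks, together with the channel Trpc2, neurons that are known to respond to low oxygen. The annotated types carried their markers: Omp, a protein of mature OSNs, stood at 72.1 ± 3.78 UMIs per 10000 in mOSN, 47.4 ± 2.46 in iOSN2 and 5.78 ± 0.674 in iOSN1 (mean ± SD, n = 4 mice, as in all values below unless stated). Gap43, a growth cone protein of young neurons, ran the other way, at 0.176 ± 0.0335, 8.75 ± 0.621 and 32.3 ± 1.49 UMIs per 10000. The authors had used both genes, among others, to name mature OSNs, so these levels are no independent check of the labels.

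The stretches of DNA in front of both cyclase genes are shown because the neurons with these genes are described in most depth. Of the 6 genes, 5 had a promoter entry in the RefSeq table (GRCm38.p6) and Car2 had none. The 250 bases before the start of Gucy2d, chr7:98440166-98440415 on the plus strand, and of Gucy1b2, chr14:62456290-62456539 on the minus strand, are printed 5′ to 3′ with CAGATG, an E-box of the kind that proneural factors bind, in capitals.
Gucy2d: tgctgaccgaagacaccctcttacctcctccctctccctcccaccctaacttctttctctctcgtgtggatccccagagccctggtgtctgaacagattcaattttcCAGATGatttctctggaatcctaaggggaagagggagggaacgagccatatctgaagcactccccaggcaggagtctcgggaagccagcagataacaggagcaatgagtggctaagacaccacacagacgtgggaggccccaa
Gucy1b2: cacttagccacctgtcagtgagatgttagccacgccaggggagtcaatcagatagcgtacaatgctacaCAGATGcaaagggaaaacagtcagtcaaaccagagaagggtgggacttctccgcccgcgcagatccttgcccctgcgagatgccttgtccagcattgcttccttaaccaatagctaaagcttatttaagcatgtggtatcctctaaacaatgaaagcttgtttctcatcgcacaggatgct
CAGATG occurred once in each, 14.4% of 32851 mouse promoters held it on either strand in a window of this length, and its first base lay at position -143 and -181 from the start. The palindromic site of the Ebf factors of OSNs and TAATTA, a homeodomain site, were searched likewise, occurred in 0.779% and 4.84% of all promoters and had 0 matches in each of these windows. A match describes letters only.

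Where the genes lie limits how they can be counted, because only the 3′ end of a transcript was read. On GRCm38, Gucy2d spans 7:98440416-98477479 (plus strand), Gucy1b2 14:62392676-62456289 (minus), Car2 3:14886273-14900770 (plus) and Cnga3 1:37214434-37263384 (plus), and 0 of their exon bases lie in another gene of the same strand. Pde2a (7:101421691-101512827, plus) shares 64.3% of its exon bases, and 292 of the last 300, with the read-through model Gm45837. All 2874 exon bases of Trpc2 (7:102083116-102096396, plus) lie inside other models, 2803 of them inside Xntrpc (7:102065713-102096864), a read-through transcript that holds the channel's exons. A read in shared exons can be discarded or given to the other gene.

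The members differed widely in how often they were seen, as the plot of levels by cell type shows. Car2 was the member detected in the most neurons. It was detected in 3903 mOSN, 378 iOSN2 and 38 iOSN1, whereas Gucy1b2 was found in 40 neurons, Gucy2d in 8, Pde2a in 8, Cnga3 in 3 and Trpc2 in 0. Trpc2 had no UMI in any cell type or removed barcode. With 0 of 10519 mOSN, up to 0.0285% of mature neurons could carry a countable Trpc2 UMI, and this limit covers counting error only and says nothing of reads lost to Xntrpc.

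**Figure D1:**
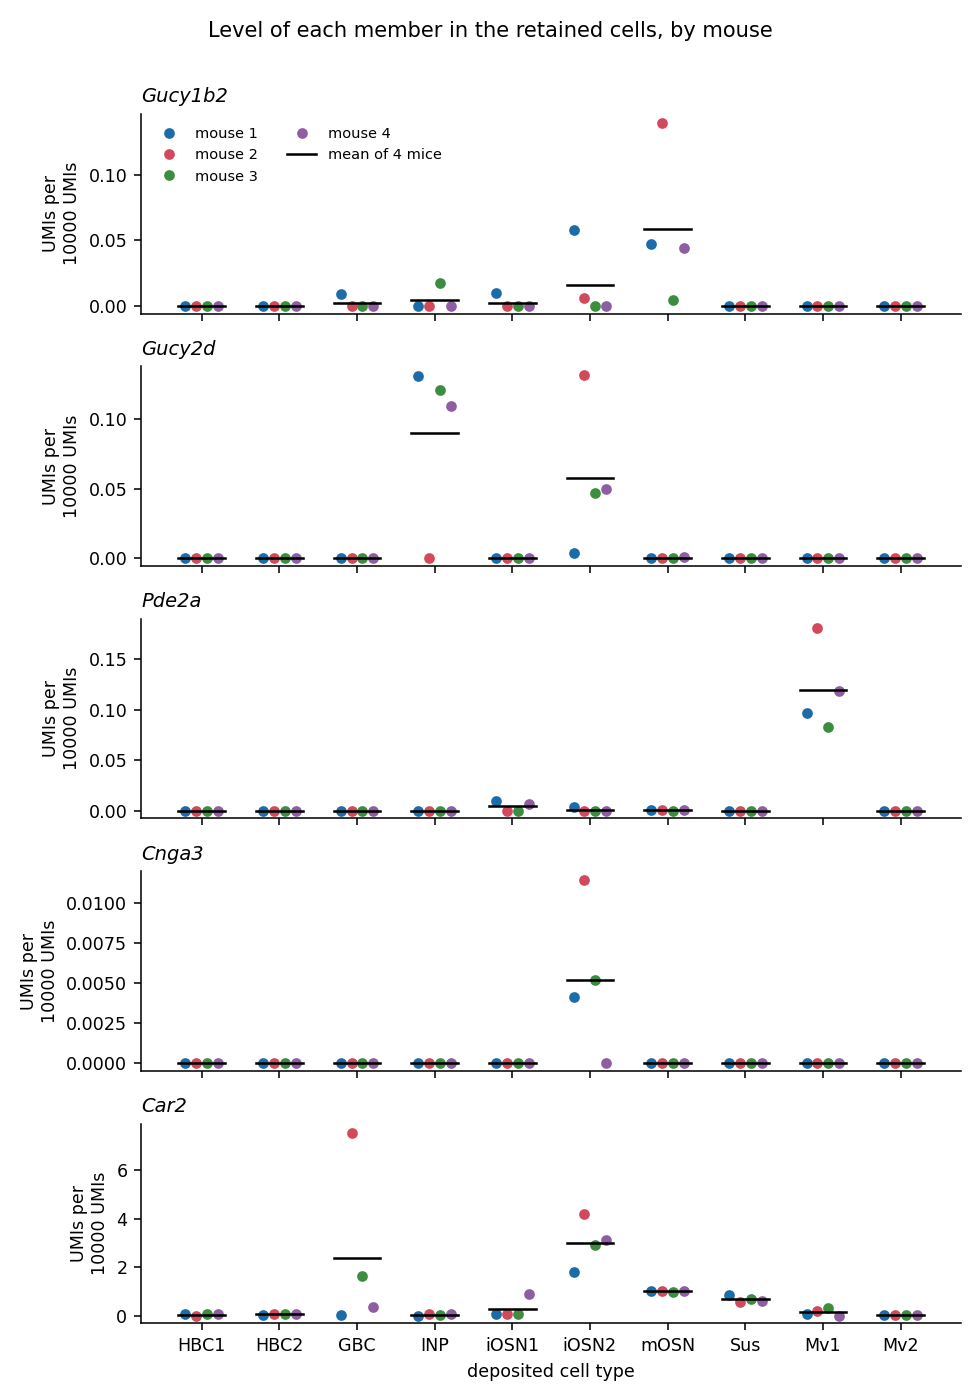
UMIs per 10000 of Gucy1b2, Gucy2d, Pde2a, Car2 and Cnga3 (1 panel each, y axis) in the 10 retained cell types (x axis); each point is 1 of 4 mice and the line is their mean. Car2 in mOSN has nearly the same value in all mice, near 1.01, while the iOSN2 points of Car2 and Gucy2d scatter, Gucy2d has further points in the neuronal precursors (INP), and 1 GBC point of Car2, mouse 2 at 7.54, rests on 2 cells.

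Gucy2d, the receptor cyclase, was found in 7 iOSN2 neurons of all 4 mice and in 1 mOSN. The UMI counts of Gucy2d in the iOSN2 neurons were 1 for mouse 1, 6 and 17 for mouse 2, 2 and 7 for mouse 3, then 3 and 5 for mouse 4. In the same cells and order Car2 reached 282, 272, 335, 126, 284, 271 and 119 UMIs. Every one of the 7 lay far above the rest of the type, in which the highest Car2 count was 6 UMIs.

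As a share, Gucy2d was detected in 0.721% ± 0.27 of iOSN2, in 1 of 10519 mOSN and in 0 of 866 iOSN1, the last of which allows a share of up to 0.346%. The 1 mOSN, from mouse 4, had a single UMI of Gucy2d and of Car2 beside 32 UMIs of the odorant receptor Olfr822, its assigned identity. Cnga3, the channel subunit of this pathway, was seen in 3 iOSN2, and 2 of them were Gucy2d cells, with 2 UMIs in mouse 2 and 1 in mouse 3. The third Cnga3 neuron, in mouse 1, had neither Gucy2d nor Car2. Pde2a was not detected in the 7 cells, whose last exon bases it shares with Gm45837, and Gm45837 itself was at 0.

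**Figure D2:**
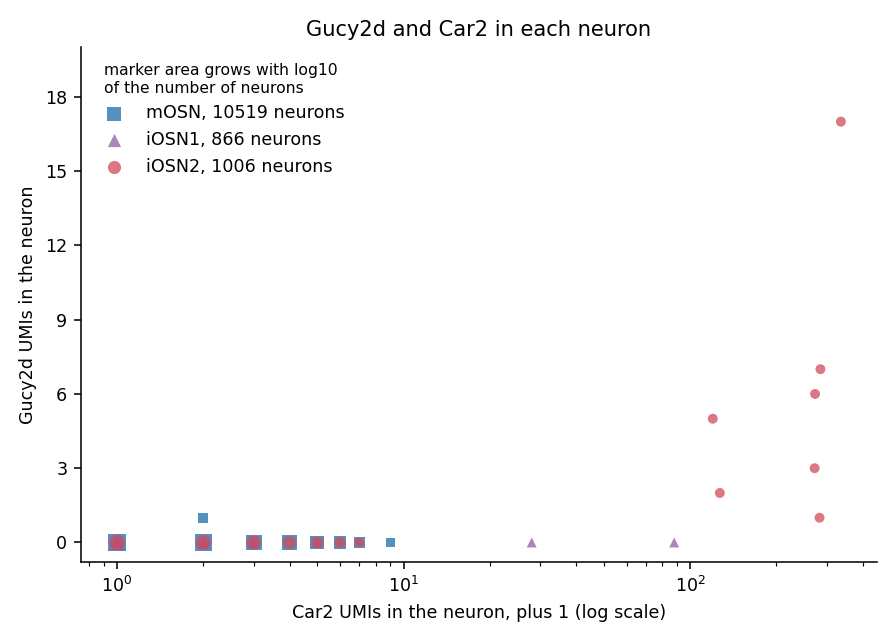
Gucy2d UMIs (y axis) against Car2 UMIs + 1 (x axis, log scale) per neuron of the 3 types; marker area grows with the log10 of the number of neurons at a point. The 7 iOSN2 neurons with Gucy2d stand on the right, at 119 to 335 Car2 UMIs, with 2 iOSN1 neurons at 27 and 87 Car2 UMIs and no Gucy2d between them and the rest. The one at 27 also held 3473 UMIs of haemoglobin genes and fell among cells with several receptors or the most UMIs.

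These 7 neurons carried hardly any odorant receptor. Their summed odorant receptor UMIs were 0 in 3 cells, 1, 2 and 4 in 3 others and 48 in the Gucy2d-richest cell of mouse 2, where Olfr464 gave 26. The median was 1 UMI, against 45 in 998 other iOSN2 neurons (the 1 rich in Gucy1b2 left out), of which 3.71% had under 5. Cells with so few receptor UMIs were thus the rule in one set and rare in the other, at a median depth of 8894 against 7300 UMIs. Identities were assigned to mature neurons only, so none of the 7 has one.

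How the Gucy2d cells differed in other genes was tested in the 3 mice with at least 2 of them, as 6 cells against 718 other iOSN2 neurons, with UMIs summed by mouse and the edgeR quasi-likelihood test with Benjamini-Hochberg adjustment. Of 7754 genes tested, 493 were called (6.36%), 96 higher and 397 lower, and the shares were 1.24% and 5.12%. The median of all genes lay at -0.81 on the log2 scale under TMM scaling and at -0.38 under RLE scaling, so a called direction for a small change depends on the scaling: 19.5% of the calls were of higher genes by TMM, 38.3% by RLE (287 calls) and 62.7% by DESeq2 (161 calls). Without mouse 2, 3 or 4 the calls fell to 109, 125 and 132. Car2 and Gucy2d get no test, since they defined the cells.

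Several core genes of the canonical cascade were at or near 0. Gnal had 0 UMIs in all 7 cells, against 16.4, 18.5, 18.2 and 17.9 UMIs per 10000 in the other iOSN2 of mice 1 to 4, at least 37.7-fold lower against a floor of 3 UMIs over the group. Cnga2 (at least 9.97-fold), Adcy3 (at least 6.07-fold) and Cnga4 (at least 4.55-fold) were also at 0 in every one of the 7. Gng13, the G protein gamma subunit of OSNs, had 1 UMI in all, with levels of 0, 0, 0.441 and 0 against 81.3, 84.3, 88.3 and 79.9 UMIs per 10000 (log2 difference -9.49, SE 0.84, edgeR adjusted p = 7.65e-27). The cells with and without Gucy2d did not overlap by mouse for any of these genes. Cngb1, the third channel subunit, had 2 UMIs and was not called (-2.03, SE 0.95, edgeR adjusted p = 0.224).

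Stoml3, a membrane protein of OSN cilia, stood at 1.02 ± 0.907 against 55.9 ± 1.19 UMIs per 10000 and was also lower (-6.16, SE 0.60, edgeR adjusted p = 9.11e-22). Of 16 genes listed as the cAMP cascade, all 16 were tested, 11 were lower and 0 higher, with a median of -2.64 where all genes had -0.81. Over the other settings 7 to 11 were lower and 0 higher, and the fewest were found without mouse 2. Omp was present but lower, at 19.1 ± 3.38 against 47.6 ± 2.57 UMIs per 10000 (-2.09, SE 0.42, edgeR adjusted p = 5.44e-05), a call lost without mouse 2 (-1.87, adjusted p = 0.62). Rtp1 and Rtp2, which carry receptors to the membrane, and the calcium-activated chloride channel Ano2 did not pass the test.

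**Figure D3:**
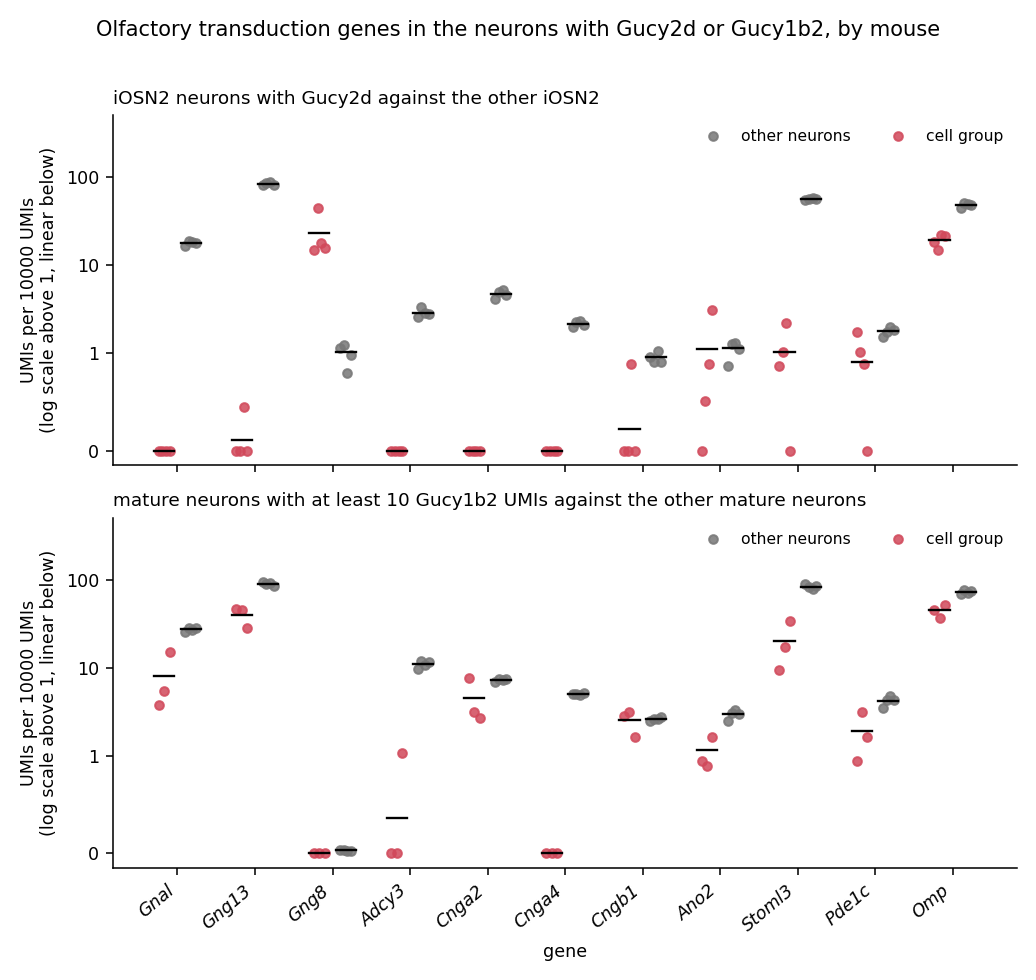
Levels of 11 transduction and related genes in UMIs per 10000 (y axis, log scale above 1 and linear below) by gene (x axis); points are mice and lines their means. The upper panel sets the Gucy2d cells beside the other iOSN2 and the lower one the Gucy1b2 cells beside the other mOSN; Gnal, Adcy3, Cnga2 and Cnga4 of the Gucy2d cells lie on 0.

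Other signalling genes were higher in the same cells. Gnas, the widely used stimulatory G protein alpha subunit, reached 3.45, 16.24, 11.02 and 16.33 UMIs per 10000 in mice 1 to 4 against 0.162 to 0.404 in the other iOSN2, 46.5 times as much (log2 difference 4.95, SE 0.34, edgeR adjusted p = 3.85e-44). Gng8, a gamma subunit of young neurons, stood at 14.7, 43.6, 17.6 and 15.3 against 0.797 to 1.21, which is 22.2 times as much (3.88, SE 0.34, edgeR adjusted p = 6.88e-27). Of the 4 immature OSN markers, Gng8 was the only one higher, Stmn4 was lower (-2.90, SE 0.44, edgeR adjusted p = 9.46e-09) and Stmn2 was not called (-0.82, SE 0.37, edgeR adjusted p = 0.199). The growth cone protein gene Gap43 stood at 6.58 ± 3.65 against 8.77 ± 0.600, and was lower in the fit (-1.31, SE 0.38, edgeR adjusted p = 0.0159), beyond the median shift by less than 1 on the log2 scale. Guk1, the kinase that phosphorylates GMP, was at 22.3 ± 4.70 against 0.803 ± 0.0739.

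Among the listed genes of the cGMP side, Cngb3, the partner of Cnga3 in cone photoreceptors, had 14 UMIs in 2 of the 7 cells, 6 in mouse 2 and 8 in mouse 4, and 0 in the 998 other iOSN2. The 9 other guanylate cyclases, both cGMP kinases and both guanylin genes had 0 UMIs in the 7 cells, and none of them passed the filter on low counts. Of 23 other phosphodiesterases 6 were tested, 1 was higher and 3 lower. The higher one was Pde1a, a calcium-dependent enzyme that cleaves cGMP, with 2.04 to 4.57 UMIs per 10000 by mouse in the Gucy2d cells and 0 UMIs in all other iOSN2. Pde1a thus passed the filter on low counts only through the Gucy2d cells and could only be called higher. Gnai2, an alpha subunit of vomeronasal neurons, had 8 UMIs in 5 of the 7 cells and was called higher (5.58, SE 0.93, edgeR adjusted p = 1.99e-07). In the other iOSN2 of mice 2, 3 and 4 it stood at 0.0347, 0 and 0.0125 UMIs per 10000. It too passed the filter on low counts only through the Gucy2d cells and could only be called higher. Gnao1, the alpha subunit of the other vomeronasal neurons, had 2.04 ± 0.744 UMIs per 10000 against 3.26 ± 0.275 and was lower (-1.49, SE 0.48, edgeR adjusted p = 0.0344). This call was lost with RLE scaling (edgeR adjusted p = 0.345), by DESeq2, without the filter on low counts, and without mouse 2, 3 or 4.

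By the rule for the largest changes, the 10 genes named as higher were Sphkap, Sncg, 1700001K23Rik, Pde1a, Dkk3, Resp18, Emx1, Pax6, Fxyd2 and S100z. Sphkap, an anchoring protein for protein kinase A, stood at 24.4, 2.20 and 48.0 UMIs per 10000 in mice 2, 3 and 4 and at 0 in the others. Sncg, 1700001K23Rik and Pde1a were also at 0 in the others. Dkk3, Resp18, Emx1, Pax6 and S100z had at most 0.0629 UMIs per 10000 in the others of each mouse. All the named genes but Fxyd2 thus passed the filter on low counts only through the Gucy2d cells. They could only be called higher. Resp18, a protein of neuroendocrine granules, was at 39.6, 53.3 and 19.4 against 0.0157 to 0.0560, and Fxyd2, a regulator of the sodium pump, at 102.5, 105.8 and 51.0 against 0.0157 to 0.884. The transcription factors Emx1 (4.06, 4.41 and 3.06) and Pax6 (6.09, 1.32 and 5.10) were present in each of these mice where the other iOSN2 had at most 0.0173. The cells were not uniform, with Sphkap at 0 UMIs in 2 of the 7 and at 44 and 48 in 2 others.

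The 5 named as lower were Calb2, Gnal, Faim2, Jakmip1 and Ptn, all at 0 UMIs in the 6 cells. Calb2 (calretinin, a calcium-binding protein) was at 20.1 to 22.5 UMIs per 10000 in the other iOSN2 of these mice and at least 45.8-fold lower over all 7 cells, and Faim2, an inhibitor of apoptosis, at least 14.6-fold lower. Markers of other cell types were near 0 in the 7 cells: the 5 immune, 4 horizontal basal and 4 precursor markers had 0 UMIs, the sustentacular and microvillar lists had 1 UMI each, and the 4 haemoglobin genes had 5. Of these 7, 2 fell among cells with several receptors or the most UMIs. Without such cells, in a fit chosen after seeing the data that also kept sums of 1 cell, 512 genes were called, with 10 of 15 tested cascade genes lower and 0 higher.

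Gucy2d was also found before the neuronal stages. In INP, the immediate neuronal precursors, 11 of 100 cells of mouse 1, 0 of 38 of mouse 2, 7 of 58 of mouse 3 and 5 of 88 of mouse 4 had it, 23 of 284 in all with 25 UMIs. The INP of mouse 2 were also the shallowest, at a median of 3288 UMIs against 6195 to 9811. Thus the precursors of 3 mice had shares of 5.68% to 12.1%, the next annotated type, iOSN1, had 0 of 866, and iOSN2 had 0.721%. The authors had taken clusters high in Omp, Cnga2 and Gng13 as mature. The 7 Gucy2d cells of iOSN2 had 0 UMIs of Cnga2 and 1 of Gng13. Their label may therefore not give their maturity, which was not tested. All 23 carried Neurod1, a proneural factor of late precursors, against 185 of 261 other INP, at a median depth of 8090 against 7410 UMIs. They held 1 UMI of Car2, unlike the 7 iOSN2 neurons, and 0 of Cnga3 and Pde2a. With each cell thinned to 3000 UMIs, 5 of 245 INP kept Gucy2d (1.70% as a mean over mice), and 0 of 1768 Mv2 microvillar cells had it in full data.

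Gucy1b2, the soluble cyclase subunit, divided its 40 neurons sharply by level. Counts of 72, 56, 49, 34, 30, 21, 14 and 14 UMIs were found in 8 neurons, then 2 UMIs in 1 neuron and 1 UMI in 31. A limit of 10 UMIs, chosen after these counts were seen, falls in the gap between 14 and 2. The 8 cells came from mice 1 (2 cells), 2 (4 cells) and 4 (2 cells), and mouse 3 had none. By level, mOSN reached 0.0470, 0.14, 0.00477 and 0.0442 UMIs per 10000 in mice 1 to 4, and iOSN2 0.0577 in mouse 1, all from the single immature cell with 14 UMIs.

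The deposited receptor identity of 6 of the 8 was Gucy1b2 itself, and these 6 had 0 odorant receptor UMIs. They were in the Calb2+ V. cluster in 4 cases and in the Ventral cluster in 2, but the zone rests on these cluster names alone. Nqo1, which marks dorsal neurons, had 0 UMIs in the 7 mature high cells, and was detected in 3527 of 10512 other mOSN. Nfix, which marks ventral neurons and was looked at after its values were seen, had 4 UMIs, all in 1 of the 7. Its levels of 0, 0 and 2.15 UMIs per 10000 in mice 1, 2 and 4 lay below the 3.24 to 4.34 of other mOSN, and it was called lower (log2 difference -3.11, SE 0.56, edgeR adjusted p = 6.6e-06). The seventh, the iOSN2 neuron of mouse 1, had 2 odorant receptor UMIs. The eighth, a mOSN of mouse 4 with 14 Gucy1b2 UMIs, held 68 UMIs of Olfr777 and was called as having several receptors. In all, 2 of the 7 mature cells had several receptors or were among the 5% of cells with the most UMIs.

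**Figure D4:**
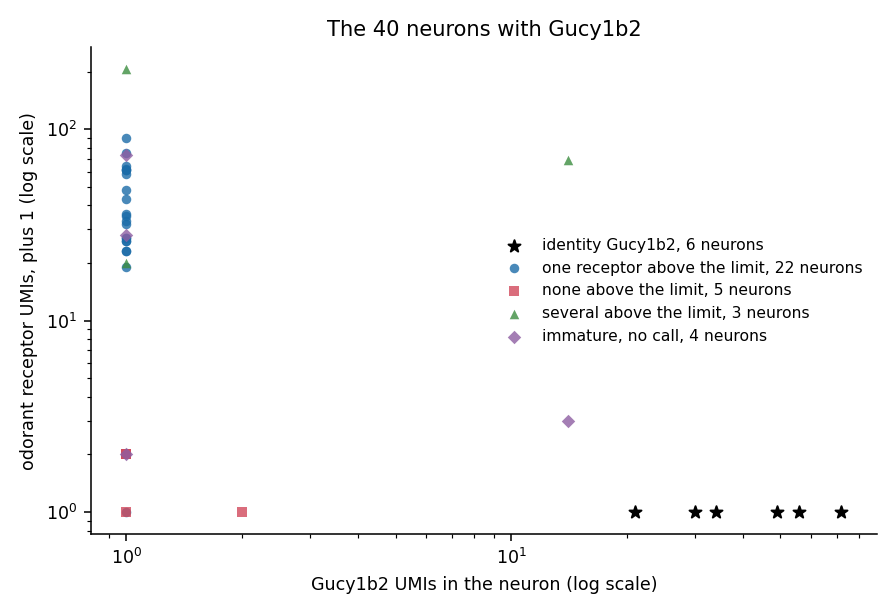
Summed odorant receptor UMIs + 1 (y axis) against Gucy1b2 UMIs (x axis), both on log scales, for the 40 neurons with Gucy1b2; symbols give the deposited receptor call. Stars at the lower right are the 6 neurons with the identity Gucy1b2, at 21 to 72 UMIs and no odorant receptor; neurons with 1 UMI and an odorant receptor identity lie at the upper left, with 18 to 89 odorant receptor UMIs.

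The 32 neurons with 1 or 2 UMIs were of many identities. An odorant or trace amine receptor was the identity of 22, spread over 21 different receptors, and 2 of them were trace amine receptors (Taar7d and Taar4), out of 44 assigned Taar neurons. Of 5 more whose best receptor stayed under the limit, 3 had a Taar7 gene as their highest. These low counts occurred in 13 of 2733 dorsal mature neurons (0.476%) and 8 of 6806 ventral ones (0.118%), with shares per mouse of 0.266% to 0.661% against 0 to 0.259%. The 6 of the 8 high cells that have a cluster were all in clusters with a ventral name. In retained cells of the other types, 2 of 3468 had a UMI (0.0577%).

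For the other genes of the Gucy1b2 cells, the 7 mOSN with at least 10 UMIs (1, 4 and 2 in mice 1, 2 and 4) were set against 8625 other mOSN of the same mice. This comparison was chosen after seeing the data, because the planned one, with at least 2 cells per sum, left 2 mice. A sum of 1 cell was assumed to vary like the others. Of 11877 genes 235 were called (1.98%), 38 higher (0.320%) and 197 lower (1.66%). The median of all genes was -1.15 under TMM, -0.68 under RLE and 0.03 in DESeq2, and 16.2%, 48.7% and 75.3% of the calls were of higher genes (235, 117 and 85 calls). Without mouse 2, which held 4 of the 7 cells, 63 were called.

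Adcy3 was found in 1 of the 7, with levels of 0, 0 and 1.08 UMIs per 10000 in mice 1, 2 and 4 against 9.74 to 11.7 in other mOSN (log2 difference -5.58, or -4.43 beside the median of all genes, SE 0.56, edgeR adjusted p = 1.47e-20). The cell that had it, with 2 UMIs, was the one with Olfr777. Cnga4 had 0 UMIs in all 8 high cells and was at least 8.57-fold lower in the mature ones, where other mOSN had 4.87 to 5.08. Gnal stood at 3.76, 5.38 and 15.1 against 25.3 to 28.4, and Stoml3 at 9.41, 17.0 and 33.9 against 78.6 to 87.9. The Olfr777 cell held 20 Gnal and 44 Stoml3 UMIs, against 8 and 19 in the other mature cell of mouse 4, and it was left out only in the fit without that mouse, where the log2 difference was -3.26 for Gnal and -3.38 for Stoml3 against -2.49 and -2.83 with all mice. Groups did not overlap for these 4 genes, which were lower in each setting tried.

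The channel was not lost as a whole. Cnga2 had UMIs in all 8 high cells, at 7.52, 3.14 and 2.69 against 6.91 to 7.44 UMIs per 10000, so that mouse 1 overlapped the others, and its call (-1.62, SE 0.34, edgeR adjusted p = 0.000398) was lost under RLE (adjusted p = 0.082) and DESeq2 (0.871). Cngb1 was not called (-0.79, SE 0.44, edgeR adjusted p = 0.585). In all, 11 of the 16 cascade genes were lower and 0 higher (median -1.65 beside -1.15 for all genes), and 4 to 11 were lower over the other settings, with 7 under RLE and 4 in DESeq2. Omp, the general mark of maturity, was at 45.1, 36.8 and 51.6 against 68.0 to 75.9.

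Among the genes with the largest rise were Sncg, Emx1, Sln, Lmo1, Wnt4, Fmn1, Gnas, Slurp2 and Pebp1. Emx1 stood at 20.7, 18.4 and 11.8 UMIs per 10000 and Sln, a small regulator of the sarcoplasmic calcium pump, at 7.52, 39.5 and 5.92, where other mOSN of these mice had at most 0.00148 and 0.00516. Sncg (gamma-synuclein) reached 1.88, 12.6 and 3.23 against 0 UMIs in all other mOSN of these mice. Emx1, Sln, Lmo1 and Wnt4 had at most 0.0104 UMIs per 10000 in those mOSN. Sncg and these genes thus passed the filter on low counts only through the Gucy1b2 cells. They could only be called higher. Gnas was at 2.82, 7.62 and 1.61 against 0.0357 to 0.0538 (5.90, SE 0.68, edgeR adjusted p = 3.55e-15), lost without mouse 2 (5.01, adjusted p = 0.277), and Guk1 at 31.0, 30.0 and 22.1 against 0.954 to 1.06. Calb2 was higher, where it had been absent from the Gucy2d cells. Its mean level was 5.44 times as high without scaling, and the TMM-scaled log2 difference was 1.5 (SE 0.25, edgeR adjusted p = 3.31e-07).

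Those named as lower were Faim2, Nqo1, Cnga4, Mslnl and Rp2, all at 0 UMIs in the 7 cells and at least 15.6-, 12.4-, 8.57-, 6.37- and 4.28-fold lower. Nqo1 is a quinone reductase and dorsal marker. It was detected in 3527 of 10512 other mOSN, so a count of 0 was common among them too. Rp2 is a protein of photoreceptors and cilia. Car2 was not called (log2 difference 0.05, SE 0.59, edgeR adjusted p = 0.972), and its sign turned without mouse 2 and at 3000 UMIs per cell. Immune, sustentacular, basal and precursor markers all had 0 UMIs in the 8 high cells, the microvillar list had 14, all from Coch, and haemoglobin genes had 4.

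Some of these genes were called in both groups of rare neurons. Of the higher genes, 11 were shared, which is 11.5% of the 96 of the Gucy2d cells and 28.9% of the 38 of the Gucy1b2 cells: Cidea, Clic6, Dmrta2, Emx1, Fam183b, Fmn1, Gnas, Guk1, Pebp1, Plaat3 and Sncg. Of the lower genes 96 were shared (24.2% of 397 and 48.7% of 197). Over all genes tested in the Gucy2d and Gucy1b2 fits, 1.24% and 0.320% were called higher and 5.12% and 1.66% lower. At least Emx1, Sncg and Dmrta2 passed the filter on low counts only through the rare cells in both fits, as did Plaat3 in the Gucy2d fit. Such genes could only be called higher, so part of the overlap of higher genes was fixed by the filter. These overlaps were counted under TMM scaling only, where the medians of all genes lay at -0.81 and -1.15. RLE and DESeq2 gave fewer lower calls in the Gucy1b2 fit, so the number of shared lower genes depends on the scaling. The comparisons used different neurons as controls, iOSN2 and mOSN, from overlapping mice, and the overlap itself was not tested. No neuron had both cyclases.

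Xntrpc, which holds most exon bases of Trpc2, was seen in 300 neurons, at 1 UMI in all but 47 of them. It was highest in the Cd55+ V. (0.400 ± 0.0810 UMIs per 10000) and Cd55+ D. (0.328 ± 0.229) clusters of mature neurons, and was at 0.0589 or less in each of the other 8. Among the 8 high Gucy1b2 cells 3 had 3 UMIs each, 1.55 per 10000 against 0.0504 in other neurons, 25.3 times as much for the mature ones (edgeR log2 difference 3.67, SE 1.13, adjusted p = 0.0589, not called). It was called with RLE scaling (4.12, edgeR adjusted p = 0.0429) and by DESeq2 (4.09, adjusted p = 0.000841), and in none of the other 7 alternatives. The 7 Gucy2d cells had 0. Whether these reads come from Trpc2 or from the longer transcript cannot be told apart. Of the other TRPC channels, Trpc1 alone reached 0.1 UMIs per 10000 of neurons.

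Pde2a was seen in 4 mOSN, 1 iOSN2 and 3 iOSN1, always at 1 UMI. Outside the neurons it was found in the Mv1 microvillar cells, at 0.0970, 0.181, 0.0830 and 0.119 UMIs per 10000 in mice 1 to 4, which was 6 of 124 cells (4.84%), and in none of the 1768 Mv2 cells. Its level in Mv1 was above its neuronal level in every mouse, but rested on only 2, 2, 1 and 1 UMIs in mice 1 to 4. Across the 40 sums of 10 cell types in 4 mice, the profiles most like Pde2a were those of Gnat3, Hmx3 and Matk (Pearson r of log2(CPM + 1) 0.934, 0.911 and 0.898). By the same measure Gucy2d was nearest to Fstl4 (0.746), Gucy1b2 to the receptor gene Olfr342 (0.884), Cnga3 to Olfr1186 (0.854) and Car2 to Creb3l1 (0.771). The sums share libraries and cell types, and most rest on few UMIs of the member, so these are descriptions only.

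Car2 was the abundant member, and its level in mOSN was nearly the same in all mice, at 1.000, 1.03, 0.994 and 0.997 UMIs per 10000. It was detected in 37.7% ± 5.17 of mOSN, 38.1% ± 5.68 of iOSN2 and 4.38% ± 0.787 of iOSN1, against 1.28% ± 0.512 of Mv2 cells at a like depth (median 5081 against 4861 UMIs in mOSN). At 3000 UMIs per cell these shares were 25.2%, 19.96%, 1.61% and 0.701%. Unthinned, the share in iOSN1 was 3.77% to 5.51% by mouse against 0.816% to 2.00% in Mv2 cells, with no overlap, and the shares in mOSN and iOSN2 were higher still. The iOSN1 were deeper than the Mv2 cells, at a median of 6830.5 against 5081 UMIs. At 3000 UMIs per cell the shares of these types overlapped, at 0.641% to 3.07% in iOSN1 against 0.4% to 1.07% in Mv2 cells. Supporting sustentacular cells had 0.680 ± 0.134 UMIs per 10000.

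The level in iOSN2 rested on the Gucy2d cells. With them it was 1.78, 4.19, 2.90 and 3.10 UMIs per 10000, and without those 7 neurons, which held 1689 of 2228 Car2 UMIs (75.8%), it was 0.625, 0.734, 0.787 and 0.691. The first set lay above mOSN in every mouse and the second below it in every mouse. In iOSN1 the values were 0.0543, 0.0862, 0.0663 and 0.883, and 2 neurons of mouse 4 with 27 and 87 UMIs gave most of the last, which without them was 0.0916. The neuron with 27 also held 3473 UMIs of haemoglobin genes. Whether its Car2 came from red cells was not tested.

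Over maturation, Car2 was the only member that passed the filter on low counts. It was higher in mOSN than in iOSN1 by 2.16 on the log2 scale (SE 0.52, edgeR adjusted p = 0.00336, 68.6% of 11275 genes called) and higher in iOSN2 than in iOSN1 by 3.65 (SE 0.49, edgeR adjusted p = 9.80e-05, 56.2% called). Between mOSN and iOSN2 the difference was -1.49 (SE 0.30, edgeR adjusted p = 0.00241, 42.4% called), which DESeq2 did not call (adjusted p = 0.093). Without the 7 Gucy2d cells it turned to 0.54 (SE 0.39, adjusted p = 0.3), and iOSN2 stood above iOSN1 by 1.66 (adjusted p = 0.03). Without mouse 4 the differences from iOSN1 were 4.05 and 5.51. The 16 cascade genes all rose in each of the 3 comparisons, where 35.6%, 28.7% and 20.8% of all genes were called higher, by medians of 2.82, 1.84 and 0.72 from iOSN1 to mOSN, from iOSN1 to iOSN2 and from iOSN2 to mOSN. Genes by which the authors had named mature OSNs, such as Cnga2, are among the 16. Of 15 other carbonic anhydrases, Car11 alone passed the filter, and it was lower with maturation, as were 33.1%, 27.5% and 21.6% of all genes.

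Within mature neurons the level of Car2 differed on average with the side and with the kind of receptor. Dorsal clusters had 0.840, 0.786, 0.807 and 0.787 UMIs per 10000 and ventral ones 1.10, 1.11, 1.08 and 1.04, so that the sides did not overlap (log2 difference -0.38, SE 0.044, edgeR adjusted p = 6.53e-05, 25.5% of 12406 genes called, 13.3% lower). Of the 10 clusters, Cd55+ D. (0.25 ± 0.128) and Cd36+ D. (0.390 ± 0.204) were lowest and did not differ beyond their spread, and Calb2+ V. was highest (1.23 ± 0.176), within its spread of Ventral (1.12 ± 0.0438) and Dlg2+ V. (1.12 ± 0.126). The cascade list moved less, with 11 genes lower in dorsal neurons, 3 higher (12.2% of all genes were called higher) and a median of -0.14. All 5 mature OSN markers were also lower in dorsal neurons (median -0.16), and of 4 immature markers 2 were higher and 0 lower. Whether Car2 moved with these markers was not tested.

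Class I odorant receptors are the fish-like family, encoded in 1 cluster on chromosome 7 (here 156 genes in 7:102476579-105369355) and expressed mostly in the dorsal zone. Among dorsal neurons, a comparison chosen after seeing the data, class I neurons had 0.559, 0.374, 0.319 and 0.385 UMIs of Car2 per 10000 and class II neurons 1.07, 1.04, 1.14 and 0.976. The classes did not overlap, and the difference was -1.28 (SE 0.11, edgeR adjusted p = 8.19e-12, 6.93% of 9559 genes called, 3.21% lower). Ventral class II neurons were at 1.09 ± 0.0284, beside 1.06 ± 0.0670 for dorsal ones. Class I neurons of the ventral clusters, only 83, ranged from 0.293 to 1.33 by mouse. Of the 16 cascade genes, Stoml3, Cnga4, Pde4a, Gnal and Cnga2 were lower in class I and 0 higher, with a largest change of -0.36.

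**Figure D5:**
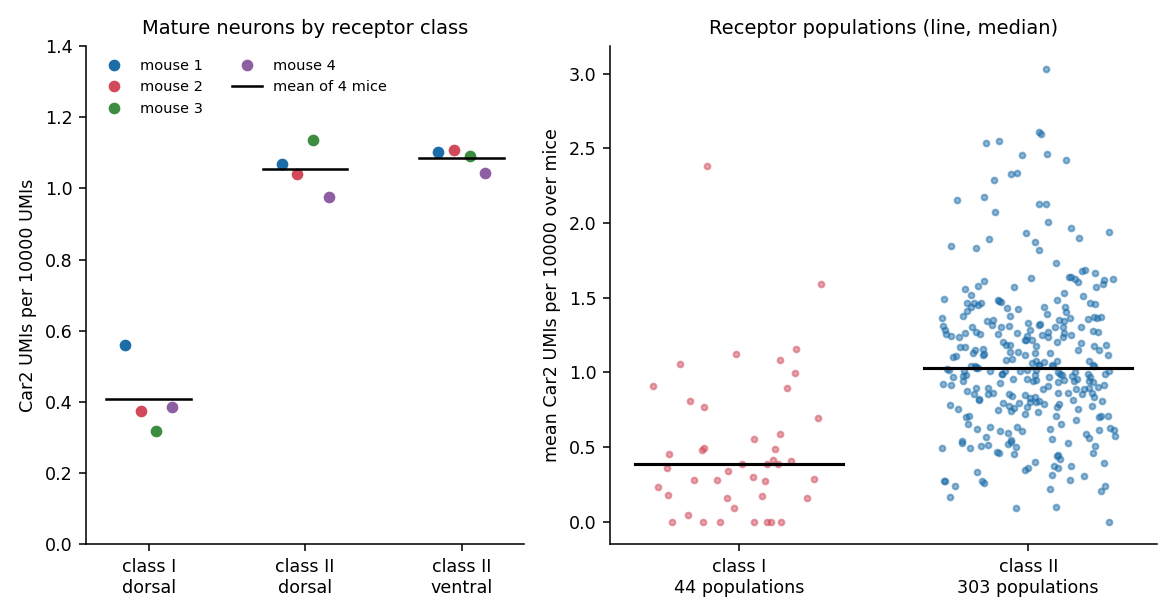
Car2 in UMIs per 10000 (y axis). On the left, points are mice and lines their means for dorsal class I, dorsal class II and ventral class II neurons; on the right, points are 44 class I and 303 class II populations of at least 10 neurons and lines their medians, 0.385 and 1.03.

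By population, of 353 with at least 10 neurons, 8 had no Car2 UMI, and 7 of them were class I (Olfr582, Olfr584, Olfr592, Olfr608, Olfr665, Olfr681 and Olfr69, 127 neurons in all). The most neurons were in Olfr681, where 0 UMIs in 153186 sets a limit of 0.196 UMIs per 10000. The classes overlapped by population, at 0 to 2.38 UMIs per 10000 for class I, highest in Olfr617, and 0 to 3.03 for class II. The 5 highest populations were Olfr994 (3.03 ± 3.23), Olfr228 (2.61 ± 1.53), Olfr1350 (2.59 ± 1.49), Olfr824 (2.55 ± 1.81, n = 3) and Olfr96 (2.54 ± 1.06), whose order lies within their spread over mice. For 42 populations that every mouse supplied with 5 neurons or more, levels differed among populations in 911 of 2233 genes (40.8%), Car2 included (edgeR F = 2.68, adjusted p = 1.02e-05). Without mouse 2 Car2 did not pass the filter.

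Neurons that held 2 or more of the 6 genes were rare, 26 of 12391 (0.21%), with 6, 8, 2 and 10 in mice 1 to 4. Gucy1b2 with Car2 made up 16 of them, Gucy2d with Car2 8, and Pde2a with Car2 2, and the 2 neurons with 3 members were Gucy2d cells with Cnga3. Car2 was found in 40% of the neurons with Gucy1b2 and in 34.8% of those without, at median depths of 6587 and 5129 UMIs. Car2 was found in all 8 neurons with Gucy2d. By identity, 5 of the 26 were Gucy1b2 neurons, and Olfr1175, Olfr739, Olfr161, Olfr139, Olfr1154, Olfr822 and Olfr728 had 1 each. With at least 2 UMIs required of each gene 10 neurons remained, 6 with Gucy2d and 4 with Gucy1b2, and at 3000 UMIs per cell 11.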

How the data were processed

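Single-cell RNA-seq (10x Chromium 3′ v3.1) of the main olfactory epithelium of 4 mice was deposited as UMI counts per cell, which the authors made with Cell Ranger 6.0.1 on GRCm38, and the merged table equalled the 4 matrices (0 features differed). Cell types, receptor identities and clusters were taken from the deposited annotation, and the authors had removed cells with over 10% mitochondrial counts or under 1000 genes. No doublet caller was run here. Instead 1023 retained cells (neurons with several receptors and the 5% of cells with the most UMIs) were left out as an alternative. Levels are UMIs per 10000 UMIs of a cell type in a mouse. Differences given as times are ratios of mean levels without TMM scaling, so they differ from the log2 differences of the fits. Those of the Gucy2d cells used 7 cells, where the fit used 6. A count of 0 was given a limit of 3 counts, and limits cover counting error only.

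For tests, UMIs were summed by mouse and group and fitted with edgeR 4.0.16 in R 4.3.3 (TMM, filterByExpr, quasi-likelihood test, Benjamini-Hochberg, threshold 0.05), with mouse as a block because the groups compared came from the same animals. Alternatives were RLE factors, no filter, no block, DESeq2 1.42.0, leaving out each mouse or the possible doublets, and thinning to 3000 UMIs per cell. The fits were tested on simulated counts. The members and gene lists were chosen with earlier results of these data known. Genes named in each cell-group fit were the 10 with the largest rise and the 5 with the largest fall among those called, moving the same way in every mouse and with at least 10 UMIs (1 of them is not reported here), and the 3 nearest profiles of each member (1 to 3 printed) used 40 sums and genes with at least 100 UMIs. Cell-group fits were set to need sums of at least 2 cells in at least 3 mice, so the planned fit of Gucy1b2 cells was not run (2 mice), and one of Trpc2 cells could not be made (0 UMIs). The comparisons of Gucy1b2 cells with at least 10 UMIs, of receptor classes, without the Gucy2d cells and with sums of 1 cell were chosen after seeing the data. Nothing says more of the samples than 1 library a mouse. With mouse as a block, p-values rest on how differences within mice vary, with a spread that edgeR shares across genes. In the main cell-group fits that spread was taken almost wholly from all genes together. Very small p-values there do not measure the spread over the few mice. Class I receptors were taken as those in the chromosome 7 cluster.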

Additional observations from a re-analysis of the deposited data

Results flagged for a closer look

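Among 36 sets of 4 mouse values with at least 10 UMIs, 5 had 1 mouse far from the other three, where chance gives about 1 in 20. Gucy1b2 in iOSN2 stood at 0.0577 UMIs per 10000 in mouse 1, from 1 neuron with 14 UMIs, and in the Ventral cluster at 0.14 in mouse 2, from 2 neurons. Gucy2d in INP was 0 in mouse 2, which had the fewest INP cells and the shallowest (median 3288 UMIs, against 6195 to 9811 in the other mice). Car2 in iOSN1 was 0.883 in mouse 4, from 2 neurons, 1 of them with 3473 haemoglobin UMIs. In mOSN it was 1.03 in mouse 2, a gap that is small beside the level.

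Members were also counted in barcodes that the authors had removed. Gucy1b2 had 17 UMIs in the class of blood cells, all in 1 barcode of mouse 4 with 22 UMIs of Omp, 3794 of haemoglobin genes and 1 odorant receptor UMI. Gucy2d had 4 UMIs in the class of high mitochondrial content, in 1 barcode of mouse 3 with 13 UMIs of Car2 and 1 of Pde2a. Pde2a had 43 UMIs in removed immune cells and 4 in removed Mv1 cells. Car2 had 7944 UMIs in blood cells, where it is a known red cell enzyme, 458 in immune cells, 97 in the high mitochondrial class, 54 in removed mature OSNs, 17 in GBC and 4 in sustentacular cells.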

How the results depend on the processing

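Of 781 values recomputed under alternatives, 684 stayed the same, 52 lost the threshold, 38 moved and 7 changed sign. For log2 differences, staying the same meant keeping direction and side of the threshold. For counts of genes or cells it meant staying within a set ratio, and for shares and levels within the SD over mice. For Car2, mOSN against iOSN2 was -1.46 in DESeq2 and 0.54 without the Gucy2d cells, where the iOSN2 level was 0.709. Calls in the Gucy2d fit (493) were 287 with RLE, 901 without the replicate block, 161 in DESeq2 and 109 to 132 without 1 mouse, and in the Gucy1b2 fit (235) 117, 135, 85 and 63 to 148, with 43 at 3000 UMIs. In the Gucy1b2 fit Car2 ran from -0.75 (without mouse 2) to 0.31 without 1 mouse and was -0.11 thinned, and Rtp2 from -0.43 to 0.31 and -0.42. In the Gucy2d fit Rtp1 was 0.068 with RLE and Slc24a4 -0.16 (without mouse 2) to 0.82 without 1 mouse. Lower cascade genes numbered 7 without mouse 2 for Gucy2d, and 7 with RLE, 4 in DESeq2 and 7 thinned for Gucy1b2. The replicate block rests on mouse, since the groups came from the same animals. Without it dorsal calls fell from 3160 to 1791 and class calls from 662 to 303 (237 in DESeq2), and 13.9% of the Gucy2d calls were of higher genes (33% with no filter). Thinning left 2963 and 4221 maturation calls of 4785 and 6341. Shares of cells with Car2 at 2 UMIs, and thinned, were 1.31% and 1.61% in iOSN1 (2.46% without possible doublets), 13.1% and 19.96% in iOSN2 and 11.6% and 25.2% in mOSN. Gucy1b2 in mOSN was at 0.0715% and 0.238%, and Gucy2d in iOSN2 at 0.301% thinned. Neurons with 2 or more members were 10 and 11, and 16 to 24 without 1 mouse. Rare cells, 1 to 4 a mouse, limit each cell-group test, and the causes of these differences were not tested. The planned thinned and doublet-free fits of Gucy2d cells were not run, since fewer than the 3 mice set as a minimum were left.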

Other observations

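Emx1 and Sncg, called in both groups of rare neurons, were used after seeing the data to look for further neurons that share these genes. With at least 5 UMIs of either gene, 16 neurons were found, of which 5 were Gucy2d cells, 7 were Gucy1b2 cells and 4 had neither cyclase. An iOSN1 neuron of mouse 4 had 87 UMIs of Car2, 1 of Pde2a, 16 of Sncg, 3 of Emx1, 23 of Sphkap and 13 of Gnas, and 0 of Gnal, Adcy3 and Gng13. It had 0 UMIs of Fxyd2 and 1 of Resp18, where each of the 7 Gucy2d cells had at least 7 and 9. A mOSN of mouse 3, the mouse without a Gucy1b2-rich neuron, had 18 UMIs of Emx1, 16 of Sncg, 17 of Guk1 and 8 of Car2, the highest Car2 count of any mature neuron, with 61 of Gng13 and 0 of Gnal and Adcy3. It had 1 UMI of Cnga4, which was at 0 in all 8 Gucy1b2-rich neurons. Its highest receptor was Olfr629 at 2 UMIs, under the limit for an identity. The other two were iOSN1 neurons, of mouse 1 with 5 UMIs of Emx1 and 1 of Pde2a, and of mouse 4 with 5 UMIs of Sncg and 10 of Taar6.

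The Ms4a genes, a family of receptors described in necklace neurons, had 83 UMIs over 21 genes in all neurons, 0 in the Gucy2d and Gucy1b2 cells, and 10398 in the immune cells that had been removed.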
